A study of Homo sapiens with 4 samples.

Results

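The mitosis genes are 34 genes whose products drive a cell into division, hold its chromosomes on the spindle and part them. They were chosen by name, with earlier results of these data known, as array probes that carry a member's symbol or whose transcript accession leads to it, and CDK1 was found under its older name CDC2. All 34 were on the array, each with 1 probe, out of 14267 gene names in the whole series. K562 is a human erythroleukemia cell line. The cells had been treated for 4 h with AC-1041, a thalidomide analog that carries a morpholine on a trifluorophthalimide, or were control cells that the sample labels call untreated and the methods describe as a DMSO control. The study hybridized both RNAs to each of 4 Agilent arrays of the two-colour kind, and the measurement is the ratio of the treated to the control channel. Treated RNA was labelled with Cy5 on arrays 1 and 2 and with Cy3 on arrays 3 and 4. The labels give no dose, and the paper describes it both as a fixed micromolar concentration and as an IC50 concentration. Its methods state that samples of each were taken in replicate, without saying which array they went to or whether the cultures were separate, so the p-values measure only the spread between these arrays, which may be technical. Of 13 erythroid marker genes on the array, 11 were well above background on every array in both channels, HBZ and GATA1 among them, whereas of 5 monocyte and granulocyte markers MPO, CSF1R and ELANE were not so on any array, CD14 was so on some, and LYZ was so on all 4 in both channels. The probe of the lymphoid marker CD79A was also above background on all arrays.

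In a dividing cell, cyclin B and CDK1 form the kinase that starts mitosis once CDC25 phosphatases have removed its inhibitory phosphates, and PLK1 and the Aurora kinases work beside it. Kinetochores built on centromeric chromatin bind spindle microtubules, and the spindle checkpoint holds back the anaphase-promoting complex until every chromosome is attached. CDC20 then activates that complex, securin and cyclin B are destroyed, and separase cuts cohesin. Transcripts of these genes rise together late in the cell cycle, through B-MYB and FOXM1 acting with the MuvB complex, which binds the CHR element of their promoters, and through NF-Y, which binds CCAAT boxes. In a bulk sample, a lower share of cells in late cycle and less RNA per such cell cannot be told apart.

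The promoters were searched for both elements. RefSeq promoter windows (GRCh38.p14, 300 bases, from 250 before to 50 after an annotated start) were found for 28 of the 34 genes. The genes AURKA, BIRC5, BUB3, TTK, TPX2 and FOXM1 had no entry. The letters TTTGAA, the core of the CHR element, were in 20 of 39 member windows (51.3%) and in 15.2% of all 35116 windows. The letters CCAAT were in 28 of 39 (71.8%) against 34.6% of all windows, and both were in 16 of 39 (41%) against 5.9%. Both strands were searched, so TTCAAA and ATTGG counted as well, and a match was counted whether or not it overlapped another. Windows of one gene can overlap, and a match is a description of letters, not a bound site. Counted by gene, 18 of 28 genes had TTTGAA (64.3%, against 18.2% of all 27305 genes), 23 had CCAAT (82.1% against 39.7%) and 14 had both within one window (50% against 7.26%). In CCNB2, PLK1, KIF11, ESPL1 and one window of CDC25C the TTTGAA began from 31 to 28 bases before the start.

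The 200 bases before the start are shown for 4 genes, chosen with their ratios known, to show where these letters stand. Capitals mark TTTGAA and CCAAT on either strand. CDC25C was higher in treated cells on every array, CCNB2 and PLK1 did not pass the test, and TOP2A was called lower on the strength of array 2. The differences between the 4 genes were not tested. The CDC25C stretch lies before the more upstream of a pair of neighbouring starts, and holds no TTTGAA. The TTTGAA of its window begins 44 bases into the transcript from that start, which is 30 bases before the other start.
CDC25C (chr5:138331878-138332077, minus strand): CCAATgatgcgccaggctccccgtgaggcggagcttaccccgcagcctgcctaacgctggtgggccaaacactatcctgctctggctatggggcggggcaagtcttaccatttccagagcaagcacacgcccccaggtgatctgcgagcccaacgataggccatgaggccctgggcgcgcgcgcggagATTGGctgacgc
CCNB2 (chr15:59104946-59105145, plus strand): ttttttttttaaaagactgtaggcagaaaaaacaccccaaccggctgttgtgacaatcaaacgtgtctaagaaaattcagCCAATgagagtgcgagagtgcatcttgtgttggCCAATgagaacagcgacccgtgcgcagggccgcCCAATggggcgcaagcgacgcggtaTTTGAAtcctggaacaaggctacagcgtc
PLK1 (chr16:23678689-23678888, plus strand): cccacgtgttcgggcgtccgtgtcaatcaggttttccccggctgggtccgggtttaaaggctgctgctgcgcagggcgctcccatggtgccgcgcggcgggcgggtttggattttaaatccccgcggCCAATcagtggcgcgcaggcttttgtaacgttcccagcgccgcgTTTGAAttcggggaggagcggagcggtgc
TOP2A (chr17:40417897-40418096, minus strand): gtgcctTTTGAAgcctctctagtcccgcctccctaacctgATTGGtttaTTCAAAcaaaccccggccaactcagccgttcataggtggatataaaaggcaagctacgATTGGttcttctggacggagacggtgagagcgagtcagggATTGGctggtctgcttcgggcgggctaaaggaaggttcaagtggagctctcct

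Of the 34 genes, 33 were well above background in both channels of every array and were tested. ESPL1, which encodes the protease separase, was not well above background in either channel on any array and has no level here. The ratios were fitted over all 8852 probes tested with limma, with a treatment term and a dye term, and a gene is called higher or lower in treated cells where its adjusted p (Benjamini-Hochberg over all probes) was under 0.05. By this rule 7 of the 33 mitosis genes were higher (21.2%) and 2 were lower (6.06%), and 24 did not pass. Over all probes tested, 24.3% were higher and 13% lower, so the mitosis genes passed no more often than the array as a whole. The 7 were CDC25C, NUF2, NDC80, PLK4, CENPF, TTK and CENPE, and the 2 were AURKB and TOP2A. Over the 33 genes tested the median log2 ratio stood at -0.0079 (all genes tested, 0.017), with an SD between genes of 0.20 (all genes, 0.32). The median log2 intensity was 13.9 for the mitosis genes and 11.5 for all genes tested. Comparisons with the whole array were not matched for brightness. None of the 33 was called with a difference of 1.8-fold or more, against 235 of the 8836 genes tested.

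The 24 genes that did not pass had log2 ratios from -0.20 to 0.22, and their 95% intervals ran from -0.38 to 0.43. For 30 of the 33 genes the interval lay within 0.5 of zero on the log2 scale, and the exceptions were CDC25C, NDC80 and NUF2. These intervals, and the adjusted p-values, rest on how far arrays 1 and 2, and arrays 3 and 4, differed from each other. For the 7 genes without a spot on array 1, TOP2A among them, only the difference between arrays 3 and 4 enters. In limma each gene's spread is also drawn toward a value shared by all probes tested, so an interval is not that gene's own spread alone. The fit assigns the gap between the orientations to the dye. The SD given with a gene is over all its arrays and includes that gap. For one gene alone, an exact two-sided permutation of the signs of the 4 arrays has 0.125 as its smallest possible p.

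The dye orientations gave opposite ratios for most mitosis genes. In 26 of 33 (78.8%) the mean ratio of arrays 1 and 2 had the opposite sign to that of arrays 3 and 4, against 61.7% of all genes tested. For 7 of the 33 the spot on array 1 was left out, so array 2 stands alone for its orientation. The dye term passed the threshold for 20 of the 33, against 58.2% of all probes. Over the mitosis genes, log2 ratios correlated at 0.85 within the Cy5 pair and at 0.96 within the Cy3 pair. Across the pairs the correlation lay between -0.58 and -0.39. For all probes it was 0.81 and 0.94 within the pairs and lay between -0.29 and -0.12 across them. These are correlations across genes of arrays that share probes, dyes and a slide. The median mitosis gene stood at -0.040, -0.047, 0.18 and 0.079 on arrays 1 to 4. The orientations also differed in quality, with an SD of the negative control spots of 226 and 308 in Cy5 on arrays 1 and 2 and of 36.2 and 40.5 on arrays 3 and 4. Quality therefore cannot be told apart from orientation. Of the 9 genes called, CDC25C alone kept its sign on all 4 arrays. That is 3.03% of the 33 genes tested, where 20% of all probes tested were called with the same sign on every array measured. Among the 3307 probes called, 53.6% kept their sign. Without the dye term no mitosis gene passed in limma at an adjusted p under 0.05, and 1, CDC25C, did so at an unadjusted p under 0.05. Of all 8937 probes in that fit, 0.627% and 14.2% did so.

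**Figure D1:**
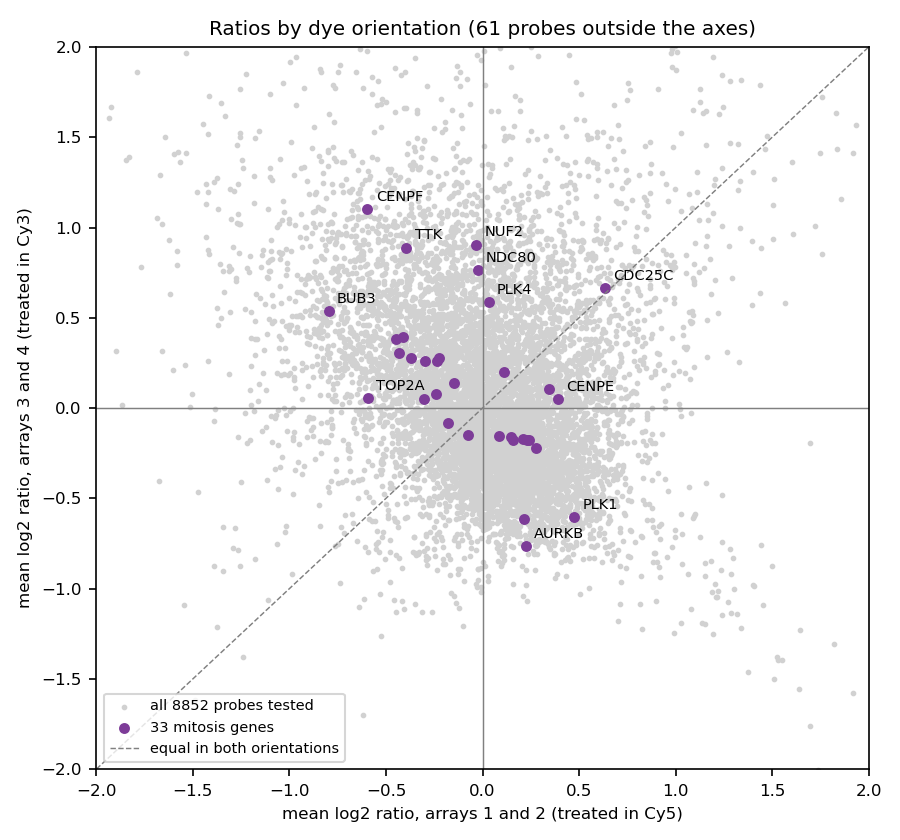
Mean log2 ratio of treated over control cells on arrays 1 and 2 (x axis) against that on arrays 3 and 4 (y axis), for the 8852 probes tested (grey) and the 33 mitosis genes (purple). Of these points, 61 lie outside the axes and are not shown. CDC25C lies on the line of equal ratios, whereas CENPF, TTK and BUB3 lie in the upper left and AURKB and PLK1 in the lower right.

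Among the kinases, cyclins and phosphatases that start mitosis, 1 of 7 was higher (14.3%, beside 24.3% of all probes) and none lower. CDC25C, the phosphatase that activates CDK1 at mitotic entry (probe at chr5:137649139-137649198 of hg18, minus strand), had log2 ratios of 0.74 and 0.53 on arrays 1 and 2 and of 0.62 and 0.70 on arrays 3 and 4. All arrays were high, and both orientations gave nearly the same mean, with a difference of -0.027 between them. The fitted log2 ratio was 0.65 ± 0.092 (SD, n = 4 arrays), a 1.57-fold higher level, with an adjusted p of 0.00024. Its normalized intensity was 3184, 3387, 2859 and 3331 in treated cells and 1908, 2342, 1856 and 2048 in control cells on arrays 1 to 4, so the channels of treated and control cells did not overlap. In the fit without a dye term its adjusted p was 0.070. When only arrays 1 and 2 were fitted its log2 ratio was 0.64, and on arrays 3 and 4 alone it was 0.66, past the threshold in both (adjusted p of 0.0079 and 7.4e-07). Both pairs passed for 26% of the 7991 probes measured on all 4 arrays, in opposite directions for 17.7%.

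CDC25B, the sister phosphatase that acts at the centrosome early in entry, went the other way in the second orientation. Its log2 ratios were 0.051 and 0.38 on arrays 1 and 2 and -0.54 and -0.69 on arrays 3 and 4, and the fitted value of -0.20 did not pass (adjusted p = 0.074). None of the 3 cyclin genes passed, where 24.3% of all probes were higher and 13% lower. CCNA2, which encodes cyclin A2, was at 0.35, -0.032, -0.31 and -0.046 on arrays 1 to 4, with a fitted log2 ratio of -0.0097 ± 0.27 (SD, n = 4). CCNB1, the main mitotic cyclin, had log2 ratios of -0.20, -0.40, 0.098 and 0.0073 on arrays 1 to 4, and its fitted value was -0.12 with a 95% interval from -0.28 to 0.032. CCNB2, the second B-type cyclin, was at -0.24 on array 2 and at 0.31 and 0.21 on arrays 3 and 4, its spot on array 1 being left out. Its fitted log2 ratio was 0.012 with an interval from -0.18 to 0.21, while arrays 3 and 4 alone put it past the threshold. CDK1, the kinase of both, was at -0.18, -0.14 and -0.025 on arrays 2 to 4, its spot on array 1 being left out, and its interval ran from -0.33 to 0.067. PLK1, a kinase needed from entry to cytokinesis, was at 0.59 and 0.36 on arrays 1 and 2 and at -0.62 and -0.59 on arrays 3 and 4. Each pair of arrays alone put PLK1 past the threshold, in opposite directions, and the fit over all arrays gave -0.065 (adjusted p = 0.49).

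Of the kinases of centrosomes and spindle poles, PLK4 was higher, beside 24.3% of all probes, and AURKA and NEK2 did not pass. PLK4, the kinase that licenses centriole duplication (chr4:129035632-129035691, plus strand), had log2 ratios of -0.077, 0.14, 0.64 and 0.53 on arrays 1 to 4. Both Cy3 arrays were high and the Cy5 arrays were near zero. Its fitted log2 ratio was 0.31 ± 0.34 (SD, n = 4), a fold of 1.24 with an adjusted p of 0.010. AURKA, which matures centrosomes, had a fitted log2 ratio of -0.11 with an interval from -0.32 to 0.094. NEK2, which parts the centrosomes, was below zero on arrays 1 and 2, at -0.53 and -0.37, and above it on arrays 3 and 4, at 0.23 and 0.53.

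The chromosomal passenger complex corrects wrong attachments and guides cytokinesis, and 1 of its 3 genes here was lower, beside 13% of all probes. The 60-base probe of AURKB, its kinase, covers 263 bases of the genome, and whether it spans a splice junction was not looked up. Probes of CCNB1, CDK1, PLK1, BUB1, BUB3 and KIF20A also cover more than 60 bases, from 243 for PLK1 to 2278 for BUB3. AURKB (chr17:8051380-8051642, minus strand) had log2 ratios of 0.24 and 0.20 on arrays 1 and 2 and of -0.76 and -0.78 on arrays 3 and 4. The orientations did not overlap and had opposite signs. The fitted log2 ratio was -0.27 ± 0.57 (SD, n = 4), a fold of 0.83 with an adjusted p of 0.011. BIRC5, which encodes survivin, had a fitted log2 ratio of 0.020, and CDCA8, which encodes borealin, of -0.0042. The difference between AURKB and its partners was not tested. On arrays 1 and 2 alone AURKB did not pass (adjusted p = 0.16).

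Of the 5 kinetochore genes, 4 were higher, beside 24.3% of all probes, and their median log2 ratio was 0.25. On arrays 1 and 2 alone, CENPE was higher, CENPF was lower and the others did not pass. NUF2 and NDC80 encode the paired subunits of the NDC80 complex that grips microtubules. NUF2 (chr1:161591768-161591827, plus strand) had log2 ratios of -0.086 and 0.023 on arrays 1 and 2 and of 0.93 and 0.88 on arrays 3 and 4. NDC80 (chr18:2600798-2600857, plus strand) had -0.0021 and -0.047 on arrays 1 and 2 and 0.71 and 0.82 on arrays 3 and 4. Both were near zero in one orientation and high in the other. The fitted log2 ratio of NUF2 was 0.44 ± 0.54 (SD, n = 4, a fold of 1.35, adjusted p = 0.0013), and that of NDC80 was 0.37 ± 0.46 (SD, n = 4, a fold of 1.29, adjusted p = 0.0029). Arrays 1 and 2 alone gave an adjusted p of 0.86 for NUF2 and of 0.89 for NDC80.

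CENPF, a large outer kinetochore protein that accumulates in G2 (chr1:212892862-212892921, plus strand), had the widest spread among the mitosis genes. Its log2 ratios were -0.75 and -0.44 on arrays 1 and 2 and 1.01 and 1.20 on arrays 3 and 4. The fitted value of 0.25 ± 0.99 (SD, n = 4, adjusted p = 0.033) lies between orientations that each passed the threshold alone, in opposite directions. CENPE, the kinetochore motor that moves chromosomes to the spindle equator (chr4:104246788-104246847, minus strand), was at 0.44, 0.35, 0.18 and -0.081 on arrays 1 to 4, above zero on 3 of 4. Its fitted log2 ratio was 0.22 ± 0.23 (SD, n = 4, a fold of 1.16, adjusted p = 0.042). CENPA, the histone H3 variant that marks centromeres, had a fitted log2 ratio of -0.019 and did not pass (adjusted p = 0.87).

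Among the spindle checkpoint genes, 1 of 5 was higher, beside 24.3% of all probes, and the dye term passed for all 5, beside 58.2% of all probes. TTK, the MPS1 kinase that switches the checkpoint on (chr6:80806149-80806208, plus strand), had log2 ratios of -0.55 and -0.24 on arrays 1 and 2 and of 0.93 and 0.85 on arrays 3 and 4. The signs were opposite in the orientations. The fitted log2 ratio was 0.25 ± 0.75 (SD, n = 4, a fold of 1.19, adjusted p = 0.032). BUB3, an adaptor that brings checkpoint proteins to kinetochores, was at -0.86 and -0.73 and then at 0.60 and 0.47, and its fitted value of -0.13 did not pass (adjusted p = 0.16). MAD2L1, the checkpoint effector MAD2, was at -0.43, -0.40, 0.40 and 0.38, which cancel to -0.011. BUB1, a checkpoint kinase, had a fitted log2 ratio of -0.066. BUB1B, which encodes BUBR1, an inhibitor of the anaphase-promoting complex, had one of 0.027. For BUB1, BUB3 and MAD2L1 each pair of arrays alone passed the threshold, lower on arrays 1 and 2 and higher on arrays 3 and 4. Of the 26 genes measured on all 4 arrays, 9 passed in both pairs, and 8 of these in opposite directions (BUB1, BUB3, CENPF, KIF11, MAD2L1, NEK2, PLK1 and TTK). The exception was CDC25C. Of the 7991 probes measured on all 4 arrays, 26% passed in both pairs and 17.7% did so in opposite directions, which is 68% of those that passed in both.

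**Figure D2:**
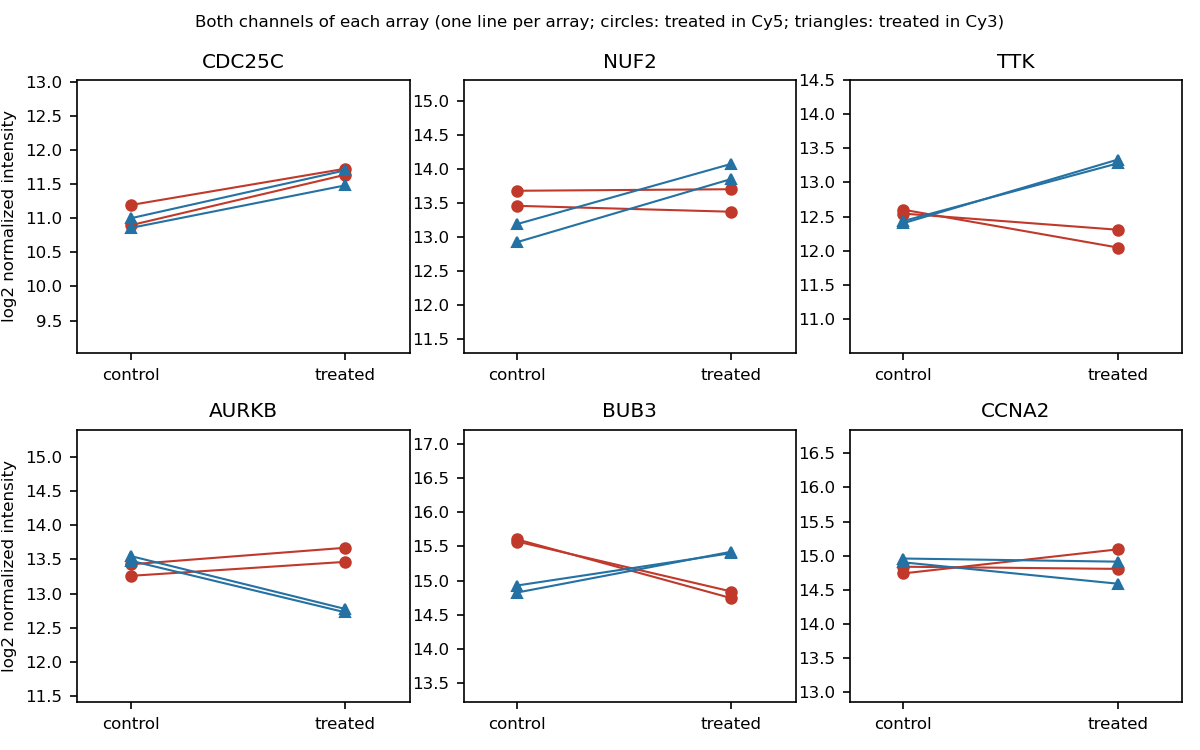
Normalized intensity (log2, y axis) of control and treated cells on each array for CDC25C, NUF2, TTK, AURKB, BUB3 and CCNA2, 1 line per array, red with circles for treated RNA in Cy5 and blue with triangles for treated RNA in Cy3. The y axes span the same number of log2 units around each gene's control level. All lines rise for CDC25C, and red and blue lines cross for NUF2, TTK, AURKB, BUB3 and, for some arrays, CCNA2.

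At anaphase onset, neither gene tested passed, where 24.3% of all probes were higher and 13% lower. CDC20, the activator of the anaphase-promoting complex, was at 0.34, 0.18 and 0.028 on arrays 2 to 4, all above zero, and its fitted log2 ratio of 0.22 had an adjusted p of 0.078. PTTG1, which encodes securin, had a fitted log2 ratio of -0.083 with an interval from -0.28 to 0.12. None of the 6 spindle motors and microtubule binders passed, beside the same shares of all probes. Their fitted log2 ratios ran from -0.045 for KIF11 to 0.16 for PRC1. PRC1, which bundles antiparallel microtubules of the central spindle, was at 0.19, 0.040, 0.17 and 0.24 on arrays 1 to 4, above zero on each, with an adjusted p of 0.096. KIF11, the motor that pushes the spindle poles apart, was at -0.29, -0.45, 0.23 and 0.33. The fitted log2 ratios of the central spindle motors KIF20A and KIF23 were 0.031 and 0.025, that of KIF2C, a microtubule depolymerase, was -0.0079, and that of TPX2, which activates Aurora A, was -0.034.

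TOP2A, the topoisomerase that untangles sister chromatids (chr17:35799235-35799294, minus strand), was lower. Its spot on array 1 was marked as an outlier and left out. Array 2 gave a log2 ratio of -0.59, and arrays 3 and 4 gave 0.019 and 0.091, so array 2 alone was below zero. The fitted value of -0.27 ± 0.38 (SD, n = 3, a fold of 0.83, adjusted p = 0.040) takes its Cy5 side from that array alone, and on arrays 3 and 4 alone it was 0.055 (adjusted p = 0.59). FOXM1, the transcription factor that drives many of these genes, was at 0.36, 0.20, -0.23 and -0.21, with a fitted log2 ratio of 0.030 (adjusted p = 0.75).

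The other genes of the mitotic machinery were taken from 5 lists of 134 genes, of which 116 were on the array and 112 were tested. Of these, 33 were higher (29.5%) and 10 lower (8.93%), beside 24.3% and 13% of all probes, and their median log2 ratio was 0.11. In 79 of the 112 (70.5%) the orientations had opposite signs, beside 61.7% of all genes tested, and 17 were called with the same sign on all arrays, beside 20% of all probes. Of the 112, 1 was called with a difference of 1.8-fold or more, and it was CENPQ.

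Among 28 other kinetochore and checkpoint genes, 11 were higher and 2 lower (39.3% and 7.14%, beside 24.3% and 13% of all probes). CENPQ, a subunit of the constitutive centromere network (chr6:49564899-49564958 of hg18), was at 1.09, 1.31, 1.27 and 1.21 on arrays 1 to 4. All arrays were high, and the fitted log2 ratio was 1.22 ± 0.092 (SD, n = 4), a fold of 2.33 with an adjusted p of 1.3e-05. CENPL, of the same network, was at 0.26, 0.55, 0.54 and 0.87, with a fitted value of 0.55 and an adjusted p of 0.0013. CENPC, which links centromeric chromatin to the kinetochore, was at -0.18, 0.10, 0.90 and 0.82, with a fitted log2 ratio of 0.41. SPC25, the NDC80 complex subunit at the inner end, was lower, at -0.78 and -1.16 on arrays 1 and 2 and 0.20 and 0.022 on arrays 3 and 4 (fitted -0.43, adjusted p = 0.0040). In the same complex NUF2 and NDC80 were called higher, and SPC24, the direct partner of SPC25, was at 0.20, 0.043, -0.38 and -0.55 and did not pass (fitted -0.17, adjusted p = 0.086). Differences between the subunits were not tested. CENPB, which binds centromeric satellite DNA, was at -0.18, 0.058, -0.42 and -1.06 on arrays 1 to 4. It was called lower, with a fitted log2 ratio of -0.40.

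Of 21 genes of entry control and G2/M transcription, 7 were higher and 2 lower (33.3% and 9.52%, beside 24.3% and 13% of all probes). Of these 9, 8 kept their sign on all 4 arrays, and 53.6% of all probes called did so on every array measured. LIN37, a subunit of the MuvB complex that binds CHR elements (chr19:40937187-40937246), was at 0.72, 0.89, 0.69 and 0.81, with a fitted log2 ratio of 0.78 ± 0.090 (SD, n = 4), a fold of 1.71 with an adjusted p of 0.00010. LIN9, another MuvB subunit, was at -0.11 and 0.24 on arrays 1 and 2 and at 1.12 and 0.86 on arrays 3 and 4 (fitted 0.53, adjusted p = 0.0016). MASTL, the Greatwall kinase that restrains the phosphatase opposing CDK1, was at 0.43, 0.34, 0.62 and 0.75 (fitted 0.54, adjusted p = 0.00049). TFDP1 and TFDP2, the dimer partners of E2F factors, were lower, with fitted log2 ratios of -0.28 and -0.21 and values below zero on all arrays.

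**Figure D3:**
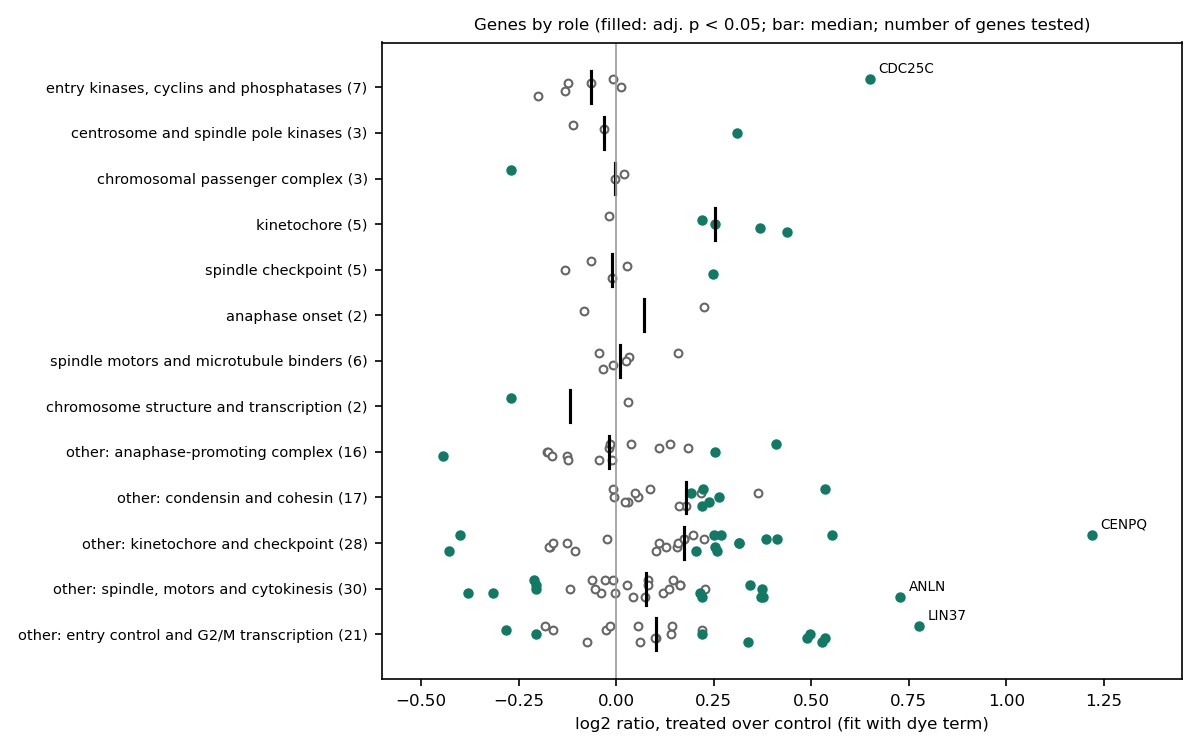
Fitted log2 ratio of treated over control cells (x axis) for the mitosis genes by role and for the 5 lists of other mitotic genes, with the number tested after each name. Filled points had an adjusted p under 0.05 and black bars are list medians; CENPQ, LIN37, ANLN and CDC25C stand to the right of the other genes.

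Of 30 other spindle, motor and cytokinesis genes, 7 were higher and 5 lower (23.3% and 16.7%, beside 24.3% and 13% of all probes). ANLN, the cleavage furrow scaffold anillin (chr7:36459112-36459171), was at 0.94, 0.79, 0.55 and 0.63, with a fitted log2 ratio of 0.73 ± 0.17 (SD, n = 4), a fold of 1.66 with an adjusted p of 0.00012. KIF18A, a motor that dampens chromosome movement, and ECT2, which activates RHOA at the furrow, had fitted log2 ratios of 0.38 and 0.37. KIF18A was at -0.018 and -0.19 on arrays 1 and 2 and at 0.83 and 0.89 on arrays 3 and 4. ECT2 was at -0.72 and -0.27 and then at 1.11 and 1.37, and was well above background on only 2 arrays in each channel. PBK, a mitotic kinase, CDCA3, which helps destroy WEE1, and NUSAP1, a microtubule binder, were lower at -0.38, -0.32 and -0.21, and of these NUSAP1 was below zero on all 4 arrays. Of 17 condensin and cohesin genes, 6 were higher (35.3%) and none lower. RAD21, the cohesin subunit that separase cuts, was at 0.017 and -0.27 on arrays 1 and 2 and at 1.29 and 1.11 on arrays 3 and 4, with a fitted log2 ratio of 0.54. STAG2, another cohesin subunit, was at -0.17, -0.37, 0.78 and 0.81, with a fitted value of 0.26. SGO1, which protects centromeric cohesin, had one of 0.24 and was above zero on all arrays. Of 16 genes of the anaphase-promoting complex, 2 were higher and 1 lower (12.5% and 6.25%). ANAPC10, a subunit that helps bind substrates, and FZR1, the late activator CDH1, had fitted log2 ratios of 0.41 and 0.25. ANAPC10 was at -0.023 and -0.082 on arrays 1 and 2 and at 0.88 and 0.86 on arrays 3 and 4. FZR1 was at 0.59 and 0.79 and then at -0.024 and -0.34, and was well above background on 3 arrays in treated and 2 in control cells. FBXO5, the inhibitor EMI1, was at -1.13 and -1.23 on arrays 1 and 2 and at 0.35 and 0.24 on arrays 3 and 4, with a fitted value of -0.44 and an adjusted p of 0.0013.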

How the data were processed

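Gene expression was measured on 4 two-colour Agilent arrays, each with AC-1041-treated and control K562 cells. Arrays were scanned by the authors and quantified with Feature Extraction, and the deposited intensity values are mean spot signals and local median background in both channels, not normalized. Feature Extraction's own dye-normalized intensity values were deposited too, with the log10 of Cy5 over Cy3. The series table deposited by the authors gives log10 ratios, of which from 99.89% to 100% matched those within 0.001 once the sign was turned on arrays 3 and 4. Columns with the authors' p-values of these ratios were not used. All per-sample columns used were mapped to samples by the labels.

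Background was corrected with normexp (offset 50). The 536 control spots and the spots marked as outliers (8.08%, 2.18%, 2.33% and 1.57% on arrays 1 to 4) were dropped before loess normalization within each array (span 0.3). Probes that cleared the background well in 1 channel or more on 2 or more arrays were tested. Ratios were modelled with limma 3.58.1 (R 4.3.3) on treatment and dye, and p-values were adjusted by Benjamini-Hochberg over all 8852 probes. Its steps were checked on simulated ratios, with changes larger than those of the mitosis genes and with the fitted dye term built in. That check does not bear on changes as small as theirs, nor on the dye term itself. For genes with several probes the brightest was used. Names came through transcript accessions and a RefSeq table (GRCh38.p14) for 12002 of 14297 probes. The hg18 positions of probes were taken from the files, and their exons were not looked up. The text names all 34 mitosis genes and, of each other list, up to 3 genes each way with the largest changes past the threshold, and SPC24, chosen after its values were seen. The members and lists were chosen with earlier results of these data known. Some marker results are not reported here. No spot was saturated. The arrays lay on the same slide and had the same scan date, so neither was a batch between them. The number of arrays limits the precision.

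The alternatives tried, whose effects are given in the closing section, were signals without background subtraction, the processed signals, the series table, centring on the median, looser and stricter filters on dim probes, marked spots kept, a fit without dye, a prior that depends on intensity, weighted arrays, the mean over a gene's probes, arrays averaged as dye-swap pairs, a stricter threshold, each array left out in turn and, chosen after seeing the data, each dye orientation alone.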

Additional observations from a re-analysis of the deposited data

How the results depend on the processing

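CDC25C was past the threshold, and higher, under every alternative run except the fit without a dye term, where its adjusted p was 0.070. The 9 calls among the mitosis genes were all kept with no background subtraction, with no filter on dim probes, with an intensity-dependent prior, with array weights and with the mean over a gene's probes. Of the 9, 6 were kept with the processed signals and equally with the series table (CDC25C, NDC80, NUF2, PLK4, TTK and AURKB, so 1 lower), 7 with median centring (7 higher, 0 lower), 8 with marked spots kept and 8 with either averaging of dye-swap pairs (1 lower, TOP2A not being measured on array 1), and 4 at an adjusted p under 0.01 (4 higher, 0 lower). Requiring both channels above background on all arrays kept the 9 and added CDC20 and CDC25B. No call of the 9 was kept without the dye term (0 higher, 0 lower).

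Leaving out 1 array at a time gave from 2 to 7 higher and from 0 to 2 lower mitosis genes, and a median log2 ratio from -0.0069 to 0.059. These fits tested 33 mitosis genes without array 1 and 26 without array 2, 3 or 4. Without array 3, the calls kept were CDC25C, NDC80 and NUF2, and without array 4, CDC25C and NUF2. Leaving out array 1 lost CENPE (adjusted p = 0.0504) and added CDC20 (adjusted p = 0.023). Leaving out array 2 lost CENPF and TTK (adjusted p of 0.089 and 0.092) and added CDC25B (adjusted p = 0.011). Among these fits, TOP2A had a value only where array 1 was the array left out. The other mitotic genes ranged from 13 to 48 higher and from 1 to 14 lower, and all probes from 1008 to 2590 higher and from 283 to 1469 lower.

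Arrays 1 and 2 alone gave 3 higher and 7 lower of 26 mitosis genes, and 14 higher and 21 lower other mitotic genes. Of the 8018 probes tested in that fit, 1323 were higher and 1371 lower. Arrays 3 and 4 alone gave 15 higher and 4 lower of 33 mitosis genes, whose median was 0.11, and 63 and 20 other mitotic genes. Of the 8853 probes tested there, 3392 were higher and 2781 lower. On arrays 1 and 2 alone the sign turned for AURKB (0.22), CENPF (-0.60), NDC80 (-0.025), NUF2 (-0.032), PLK1 (0.47) and TTK (-0.40). On arrays 3 and 4 alone it turned for BUB1 (0.30), BUB3 (0.54), CENPA (0.26), FOXM1 (-0.22), KIF11 (0.28), MAD2L1 (0.39), NEK2 (0.38) and TOP2A (0.055). Sign changes of genes that passed in neither fit were not counted. The cause was not tested.

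The counts of all probes, 2155 higher and 1152 lower in the fit as reported, became 1356 and 468 at an adjusted p under 0.01, 52 and 4 without the dye term (1271 probes at an unadjusted p under 0.05), 1342 higher with both channels above background on all arrays, and 596 lower with median centring. Median centring moved the share of higher calls from 65.2% to 79.9%. That share was 92.9% without the dye term, and 74.3% at an adjusted p under 0.01. Other mitotic genes, 33 higher and 10 lower as reported, became 18 higher with processed signals, 19 higher with the series table, 16 and 4 at an adjusted p under 0.01, 4 lower with median centring, and 1 and 0 without the dye term.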
